A study of Mus musculus with 30 samples.

Results

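The Ly6 genes Ly6a, Ly6c1, Ly6c2, Ly6e and Ly6i, together with Plac8, were followed in bone marrow-derived dendritic cells (BMDCs) of the mouse. The 6 genes were chosen by symbol from the 43629 genes of the deposited count table, with results of these same libraries already known, so their values below are a description. For that reason no p-value is given for any one of them, and no direction among them is used as support. RNA was sequenced from 5 wild-type (WT) C57BL/6J and 5 Cacnb3-/- C57BL/6N cultures. Each culture gave 3 libraries, whose names end in ctrl, 0p5h and 24h, which makes 30 libraries in 6 groups of 5.

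Cacnb3 encodes the β3 subunit of voltage-gated calcium channels, which the Cacnb3-/- mice lack. All cultures were grown from the bone marrow of adult mice of either sex in medium with granulocyte-macrophage colony-stimulating factor (GM-CSF), for 6 days according to the labels. The protocol gives a pulse of 500 µM adenosine triphosphate (ATP) for 30 min, and the 24h libraries are labelled as collected 24 h after ATP. For the other sets the treatment labels and the library names disagree. Libraries named ctrl are labelled as 30 min of ATP and libraries named 0p5h as vehicle, so which of these sets was unstimulated cannot be told apart, and both are called here by their names. The mouse substrain differs between the genotypes along with the deletion, so effects of substrain and of Cacnb3 cannot be told apart either. GM-CSF cultures hold a mixture of dendritic cells, macrophages and cells that resemble monocytes. In bulk RNA from such a mixture, fewer cells of a type and less RNA per cell cannot be told apart.

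Ly6 proteins are small, cysteine-rich proteins held at the outer cell surface by a glycosylphosphatidylinositol (GPI) lipid anchor. They belong to the Ly6/uPAR family, and several of their genes lie side by side in a cluster on mouse chromosome 15. Ly6c1 and Ly6c2 encode the Ly-6C antigens, and Ly-6C marks inflammatory monocytes, the blood cells that can give rise to dendritic cells and macrophages in inflamed tissue. Ly6a encodes Sca-1, known as a surface marker of haematopoietic stem cells and as a gene that interferons induce in many cell types. Ly6e is likewise an interferon-induced gene with known roles in viral infection, and Ly6i is a close relative of Ly6a that is found on myeloid cells. Plac8 is no Ly6 gene. It encodes a small cysteine-rich protein of myeloid and lymphoid cells and is abundant in monocytes.

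In GRCm38 coordinates, the build of the count table, the 5 Ly6 genes lay within 156.9 kb of chromosome 15. Ly6e (ENSMUSG00000022587, chr15:74955051-74959905) lies on the plus strand. Ly6i (ENSMUSG00000022586, chr15:74979534-74983430), Ly6a (ENSMUSG00000075602, chr15:74994877-74998031), Ly6c1 (ENSMUSG00000079018, chr15:75044018-75048830) and Ly6c2 (ENSMUSG00000022584, chr15:75108158-75111970) follow it on the minus strand. Plac8 (ENSMUSG00000029322, chr5:100553725-100572245) lies on the minus strand of chromosome 5. Cacnb3 itself is also on chromosome 15, between 23.52 and 23.67 Mb from the Ly6 members.

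The coding sequences of Ly6c1 and Ly6c2 are shown first because these genes differ in few bases and had very different counts. Over their 393 coding bases they differed at 9 positions and were 97.7% identical. The first 90 coding bases, which hold 6 of those differences in capitals, read 5′ to 3′ in the GENCODE M39 transcripts as follows.
Ly6c1: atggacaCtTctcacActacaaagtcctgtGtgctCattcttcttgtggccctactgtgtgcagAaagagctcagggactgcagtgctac
Ly6c2: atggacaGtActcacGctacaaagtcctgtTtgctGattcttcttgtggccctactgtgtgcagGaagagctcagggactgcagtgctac
Ly6a and Ly6i were the next closest pair, with 86.3% identity, while Ly6e was between 48.96% and 52.15% identical to the other Ly6 members. Plac8, which is no Ly6 gene, was between 44.32% and 46.9% identical to the Ly6 members. Those alignments held 87 to 142 gap columns, and values of this size are no sign of kinship.

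Such likeness bears on how reads can be assigned. Of all 50-base stretches in 1 GENCODE M39 transcript per gene, Ly6c1 shared 37.5% with other genes, Ly6c2 32.4%, Ly6a 13.3% and Ly6i 5.78%, whereas Ly6e and Plac8 shared none. These shares do not rank the members by certainty of counting, since the transcript scanned and the exons counted differ in length. For Ly6a they were 3706 and 1205 bases, and for Ly6c2 837 and 2740 bases. Ly6c2 also shares such stretches with Ly6a2, its neighbour in the cluster. With the counts of Ly6a, Ly6c1, Ly6c2 and Ly6i summed to 1 feature, the log2 fold change of Cacnb3-/- against WT in the ctrl set was -1.45 ± 0.72 (SE), and that of 24h against ctrl in Cacnb3-/- was 0.25 ± 0.67.

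The regions upstream of these near-identical genes differ more than their coding sequences, and they are shown for that reason. RefSeq places promoters on GRCm38.p6 for Ly6c1, Ly6c2 and Plac8, with more than one start for each, while Ly6a, Ly6e and Ly6i were not matched. The 150 bases before the outer start of Ly6c1 (chr15:75048838-75048987, minus strand) and of Ly6c2 (chr15:75111972-75112121, minus strand) read 5′ to 3′ as follows, with a match to GAGGAAGT, a core sequence bound by the myeloid factor PU.1, in capitals.
Ly6c1: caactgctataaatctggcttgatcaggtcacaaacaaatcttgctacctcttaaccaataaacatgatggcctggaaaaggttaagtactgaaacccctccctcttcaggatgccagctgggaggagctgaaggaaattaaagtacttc
Ly6c2: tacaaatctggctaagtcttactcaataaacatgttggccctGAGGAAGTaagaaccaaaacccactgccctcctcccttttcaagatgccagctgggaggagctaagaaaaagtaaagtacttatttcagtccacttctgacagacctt
The match in Ly6c2 begins 108 bases before the start, and no match was found within 250 bases of the outer Ly6c1 start. The inner start of Ly6c1 had 1 match, the inner start of Ly6c2 had 2, and each start of Plac8 had 0. Over 250 bases these outer promoters were 57.75% identical, with 164 equal bases, 52 mismatches and 68 gap columns in their alignment. Gap columns count as differences, so an offset between the annotated starts lowers this value. GAGGAAGT, searched on both strands, occurred in 2.44% of 32851 promoters of the same length. The letters GAAANNGAA, a core of the interferon-stimulated response element, and TTCNNNGAA, the gamma-activated site, occurred in 7.13% and 7.02% of promoters and in 0 of the 6 windows of Ly6c1, Ly6c2 and Plac8. Only GAGGAAGT matched, so matches of different motifs did not overlap, but the windows of the inner and the outer start of Ly6c1 and of Ly6c2 overlap each other. A match is a string of letters and not evidence of binding.

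Total counts per library ranged from 8237393 to 32164225, with a median of 19556920. Cacnb3 was counted in all 30 libraries, the Cacnb3-/- ones included, with 1268 ± 115.5 normalised counts per 1000000 (CPM; SD, n = 5) in WT ctrl and 1029 ± 196.1 in Cacnb3-/- ctrl. In the 24h set the values were 1678 ± 362.1 and 959.5 ± 290.4 CPM. Counts summed over a whole gene do not tell which exons the reads came from, so they are no check of the deletion, and Cacnb3-/- means the libraries labelled so. The dendritic cell markers summed to between 15175 and 44075 CPM per library, and all 10 were detected in every group. Inflammatory monocyte markers summed to between 544.6 and 6118 CPM, neutrophil and granulocyte precursor markers to between 176 and 805.7 CPM, and lymphocyte markers to at most 25.82 CPM. Sequencing lanes were spread unevenly over the genotypes, and values within lanes are given below.

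Ly6e was the most abundant member and Ly6c1 was at the edge of detection. Per kilobase of exon, mean levels over the 30 libraries were 39.8 CPM per kb for Ly6e, 20.4 for Ly6i, 15.1 for Ly6c2, 4.63 for Ly6a, 2.19 for Plac8 and 0.0158 for Ly6c1. The order of Ly6e above Ly6i held in 30 of 30 libraries, and so did Plac8 above Ly6c1. Ly6c2 exceeded Ly6a, and Ly6a exceeded Plac8, in 27 of 30 libraries each. The neighbours Ly6i and Ly6c2 were not separated, since Ly6i was the higher in only 11 of 15 WT and 8 of 15 Cacnb3-/- libraries.

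Ly6c1 had 15 counts over all libraries against 26103 for Ly6c2, and it was at 0 in 19 of 30 libraries. A count of 0 allows up to 3 counts, which was between 0.0995 and 0.381 CPM depending on the library. This limit covers counting error only. Ly6c1 failed the filter on low counts in every comparison, so 5 of the 6 members were tested.

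**Figure D1:**
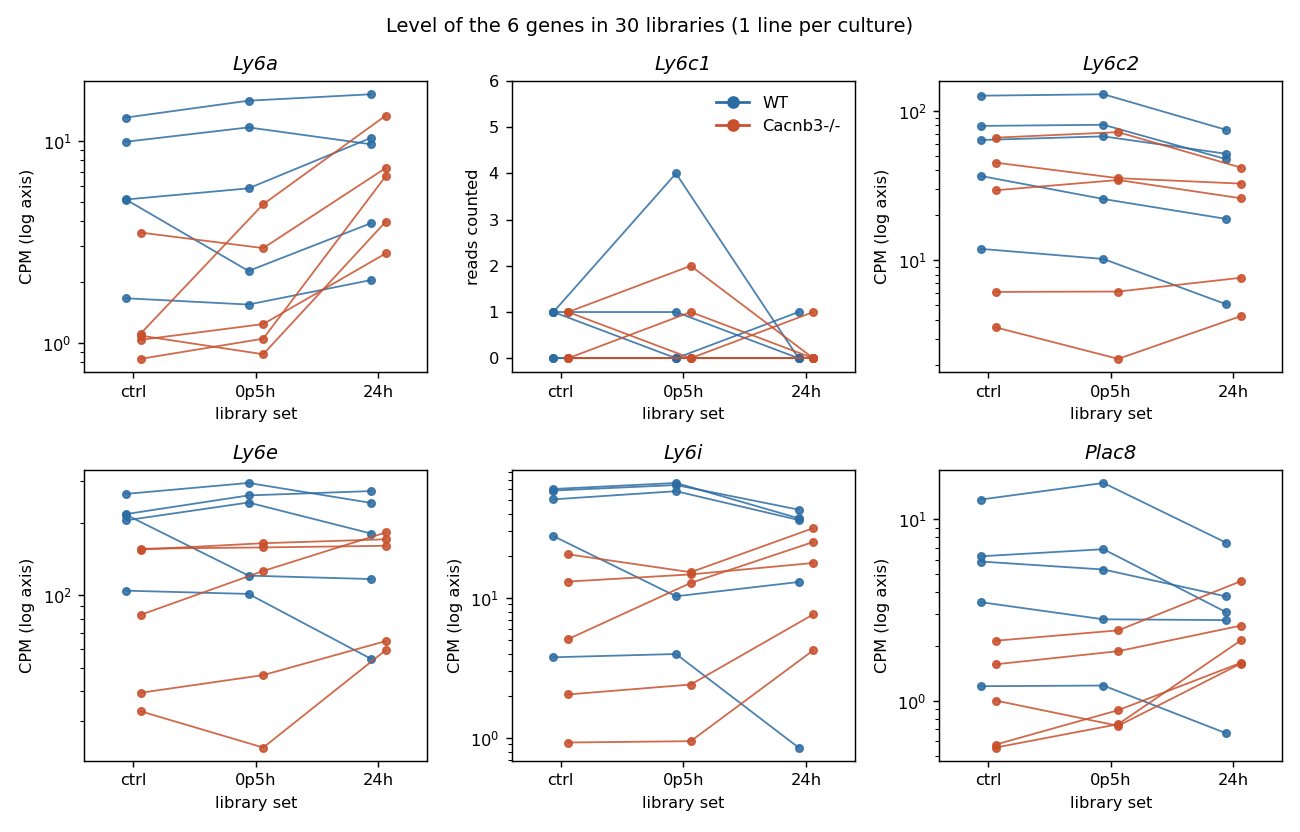
Levels of the 6 genes in the ctrl, 0p5h and 24h libraries, where each point is 1 library, each line joins the libraries of 1 culture, and colour gives the genotype. Axes are CPM on a log scale except for Ly6c1, which is shown as reads counted and does not pass 4. Values of Ly6e span 23.32 to 293.1 CPM and those of Plac8 0.555 to 15.88 CPM, and the WT and Cacnb3-/- points of each of the 5 tested genes overlap in each set.

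The first comparison was of Cacnb3-/- with WT cultures within each library set. In the ctrl libraries the mean of each of the 5 tested members was lower in Cacnb3-/- than in WT cultures, with log2 fold changes from -2.31 for Plac8 to -1.05 for Ly6c2, while the median over all 13022 tested genes was 0.03. The groups overlapped for every member. By edgeR's quasi-likelihood test with Benjamini-Hochberg adjustment, a gene being called at an adjusted p below 0.05 and at least a 2-fold change, 0 of 5 members were called, and 0% of all genes were called.

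Ly6a, the Sca-1 gene, was at 13.02, 5.12, 9.88, 5.12 and 1.66 CPM in the ctrl libraries of WT cultures s846, s850, s855, s856 and s864, numbered as in the library names. In those of Cacnb3-/- cultures s843, s851, s852, s853 and s865 it was at 1.11, 3.51, 1.09, 0.833 and 1.03 CPM. WT culture s864 lay within the Cacnb3-/- range, and the other 4 WT cultures were above it. The log2 fold change was -2.19 ± 0.54 (SE), from 6.96 ± 4.48 to 1.52 ± 1.12 CPM (SD, n = 5 each).

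Plac8 was at 5.87, 3.50, 12.87, 6.27 and 1.21 CPM in the WT ctrl libraries and at 0.555, 2.15, 1.01, 0.576 and 1.59 CPM in the Cacnb3-/- ones. Here too culture s864 was the only WT culture inside the Cacnb3-/- range. The log2 fold change of Plac8 was -2.31 ± 0.57 (SE). Its counts were low, from 9 to 37 in the Cacnb3-/- ctrl libraries.

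Ly6i, the myeloid relative of Ly6a, was at 50.62, 27.67, 58.50, 60.03 and 3.77 CPM in WT ctrl and at 5.09, 20.5, 0.93, 2.05 and 13.1 CPM in Cacnb3-/- ctrl. The range within Cacnb3-/- was 22.05-fold, wider than the difference between the means. Its log2 fold change was -2.24 ± 0.78 (SE).

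For Ly6c2, the monocyte marker, cultures of both genotypes were interleaved. It was at 79.25, 36.65, 63.78, 126.2 and 11.93 CPM in WT ctrl and at 29.41, 45.02, 3.56, 6.15 and 66.14 CPM in Cacnb3-/- ctrl. Cacnb3-/- cultures s851 and s865 were above WT culture s850, and WT culture s864 was below Cacnb3-/- culture s843. The log2 fold change was -1.05 ± 0.72 (SE), within the spread between cultures.

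Ly6e was at 217.6, 216.4, 205.0, 264.0 and 104.6 CPM in WT ctrl and at 83.0, 154.9, 33, 39.39 and 156.3 CPM in Cacnb3-/- ctrl. Only WT culture s864 lay within the Cacnb3-/- values. The log2 fold change was -1.09 ± 0.42 (SE).

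WT culture s864 thus lay inside the Cacnb3-/- range for each of the 5 tested members in ctrl. It was also the lowest WT culture for each of them in the mean of its 3 libraries, at 9.07 CPM for Ly6c2 and 1.03 CPM for Plac8. With this culture left out of the ctrl comparison, edgeR called 2 of 5 members, Ly6a at -2.44 and Plac8 at -2.57, where 1.88% of all genes were called. The culture was singled out by its values in these same genes, so these calls are no support for a difference. With any other single culture left out, edgeR called no member. DESeq2 on all cultures called the same 2 members, where 1.02% of all genes were called. Of all genes tested by edgeR, 2161 (16.59%) had an unadjusted p below 0.05, and 4 of the 5 members were among them.

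In the 0p5h libraries the values were close to those of ctrl. WT values of Ly6a lay between 1.55 and 15.78 CPM, against 0.877 and 4.85 CPM in Cacnb3-/-, and those of Plac8 between 1.22 and 15.88 CPM, against 0.731 and 2.45 CPM. Log2 fold changes of Cacnb3-/- against WT were -1.71 ± 0.66 (SE) for Ly6a, -1.03 ± 0.79 for Ly6c2, -0.94 ± 0.49 for Ly6e, -2.10 ± 0.81 for Ly6i and -2.21 ± 0.61 for Plac8. All groups overlapped, and edgeR called 0 of 5 members and 0% of all genes, with 3 members and 2103 genes at an unadjusted p below 0.05. DESeq2 called Plac8 alone among the members, with 0.597% of all genes.

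In the 24h libraries the genotypes lay closer together. Ly6a was at 16.98, 3.91, 9.60, 10.34 and 2.04 CPM in WT cultures s846, s850, s855, s856 and s864, and at 13.32, 7.33, 3.98, 6.69 and 2.77 CPM in Cacnb3-/- cultures s843, s851, s852, s853 and s865. All Cacnb3-/- values lay within the WT range. The log2 fold change of Ly6a was -0.30 ± 0.54 (SE), and without WT culture s846 its sign turned to 0.11.

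Plac8 at 24h was at 3.77, 2.79, 7.45, 3.09 and 0.665 CPM in WT and at 2.16, 4.57, 1.61, 1.62 and 2.60 CPM in Cacnb3-/-. Ly6i was at 36.06, 13.01, 42.75, 37.12 and 0.856 CPM in WT and at 25.12, 31.54, 4.23, 7.64 and 17.79 CPM in Cacnb3-/-. For both genes the lowest value of all 10 libraries was in WT culture s864. Log2 fold changes were -0.44 ± 0.49 (SE) for Plac8, which turned to 0.03 without WT culture s855, -0.55 ± 0.73 for Ly6i, -0.78 ± 0.66 for Ly6c2 and -0.40 ± 0.43 for Ly6e. Removing the trend of fold change with GC content took Ly6e, whose transcript is 55.19% GC, to -0.04. Neither edgeR nor DESeq2 called a member at 24h, where they called 0% and 4.74% of all genes, and 4877 genes but 0 members had an unadjusted p below 0.05.

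With the libraries of each culture summed, the log2 fold changes were -1.30 ± 0.51 (SE) for Ly6a, -1.04 ± 0.75 for Ly6c2, -0.88 ± 0.42 for Ly6e, -1.72 ± 0.75 for Ly6i and -1.72 ± 0.57 for Plac8. EdgeR called 0 of 5 members and 0% of all genes, with 3 members and 3449 genes at an unadjusted p below 0.05. DESeq2 called Plac8, with 1.75% of all genes. Without WT culture s864, singled out by its values as above, edgeR called Ly6a at -1.55 and Plac8 at -1.98, with 2.54% of all genes. Without any other single culture it called no member.

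**Figure D2:**
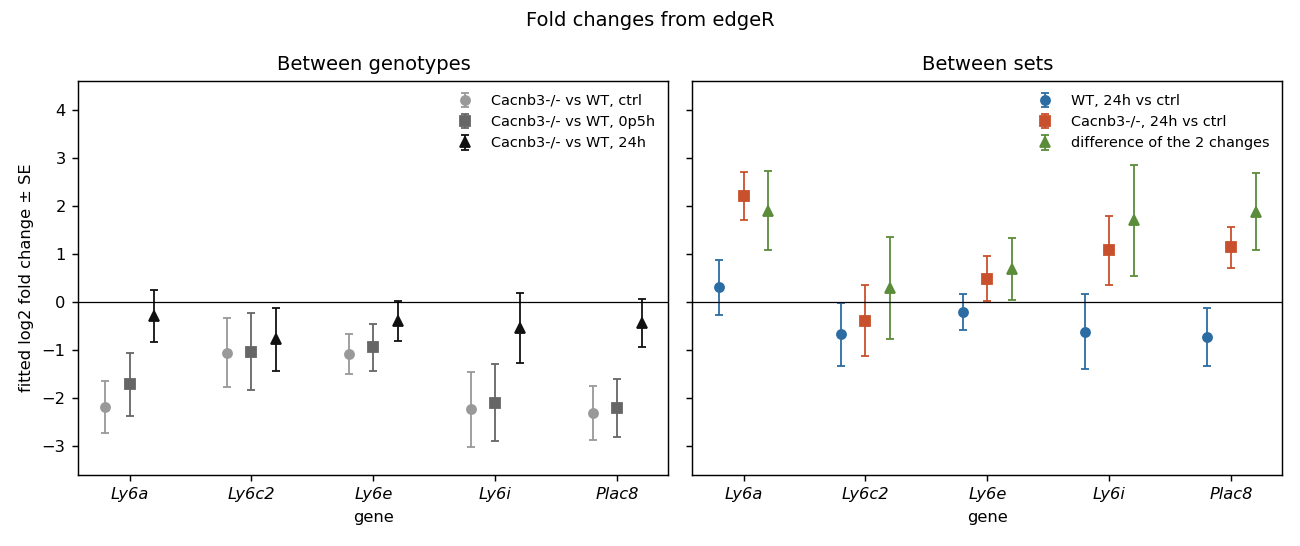
Fitted log2 fold changes of the 5 tested members from edgeR, with bars of 1 standard error, for Cacnb3-/- against WT in each library set (left) and, for 24h against ctrl, in WT, in Cacnb3-/- and as the difference of these changes (right). The genotype differences of Ly6a, Ly6i and Plac8 lie near -2 in ctrl, at -2.19, -2.24 and -2.31, and nearer to 0 at 24h, at -0.30, -0.55 and -0.44.

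Lane was a further difference between the libraries. In lane L001 of the ctrl set, which held 3 WT and 1 Cacnb3-/- library, Ly6c2 had a mean of 42.61 CPM in WT and 45.02 CPM in Cacnb3-/-, whereas in lane L003, with 1 WT and 2 Cacnb3-/- libraries, the means were 63.78 and 17.78 CPM. In L001 of the 0p5h set each of the 5 tested members was higher in the single Cacnb3-/- library than in the mean of the 2 WT libraries, for example Ly6i at 15.28 against 7.13 CPM. At 24h the same held in L001, with Ly6i at 31.54 against 6.93 CPM, and not in L002 or L003. The L001 libraries of 0p5h and 24h are of Cacnb3-/- culture s851 and of WT cultures s850 and s864, so lane and culture cannot be told apart. With lane as a term in the fit, the fold changes of the members between genotypes kept their direction.

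The next comparison followed each genotype from set to set. Between ctrl and 0p5h the fold changes of the members were close to 0. In WT cultures the log2 fold changes ranged from -0.01 to 0.13, and in Cacnb3-/- cultures from -0.003 to 0.55, the last being Ly6a. Cacnb3-/- culture s843 alone took Ly6a from 1.11 to 4.85 CPM, which is 4.37-fold, and the other 4 cultures lay between 0.809 and 1.26-fold, so that without culture s843 the log2 fold change of Ly6a was -0.07. With lane as a term in the fit, the WT values from ctrl to 0p5h were -0.86 for Ly6i, -0.66 for Ly6c2, -0.47 for Ly6a, -0.30 for Plac8 and -0.27 for Ly6e, and none was called. Of the WT cultures only s846 changed lane, from L001 in ctrl to L002 in 0p5h and 24h. Lane and culture cannot be told apart in these values. With culture number as a term instead, the WT values lay between -0.10 for Ly6i and 0.07 for Plac8. EdgeR called 0 of 5 members in either genotype, against 0.176% of all genes in WT and 0.29% in Cacnb3-/-. DESeq2 called 0 members, against 0.322% and 0.404%. None of the members had an unadjusted p below 0.05 in edgeR, where 594 and 509 genes did.

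From ctrl to 24h the levels of several members differed in direction between the genotypes. In Cacnb3-/- cultures Ly6a, Ly6e, Ly6i and Plac8 were higher at 24h in 5 of 5 cultures, which 12.8% of all genes were. In WT cultures Ly6c2, Ly6i and Plac8 were lower in 5 of 5, which 11.6% of all genes were.

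For Ly6a the fold from ctrl to 24h was 12.01, 2.09, 3.67, 8.03 and 2.68 in Cacnb3-/- cultures s843, s851, s852, s853 and s865. In WT cultures s846, s850, s855, s856 and s864 it was 1.3, 0.764, 0.972, 2.02 and 1.23. The smallest Cacnb3-/- fold was above the largest WT fold by little. Culture s843 had the largest fold here and for Plac8 and Ly6i below. Its ctrl and 24h libraries correlated at only 0.076, so its pairing is uncertain. The log2 fold change of the group was 2.21 ± 0.50 (SE) in Cacnb3-/- and 0.30 ± 0.58 in WT, where a term for the lane turned it to -0.20. Of the WT cultures only s846 changed lane, so lane and culture cannot be told apart in that value. Cacnb3-/- culture s852 changed lane as well, from L002 in ctrl to L003 at 24h.

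For Plac8 the folds were 3.89, 2.13, 1.60, 2.82 and 1.63 in Cacnb3-/- and 0.643, 0.797, 0.579, 0.492 and 0.551 in WT, so each Cacnb3-/- culture was higher and each WT culture lower at 24h. Its log2 fold changes were 1.14 ± 0.42 (SE) and -0.73 ± 0.61.

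For Ly6i the folds were 4.94, 1.54, 4.55, 3.73 and 1.36 in Cacnb3-/- and 0.713, 0.470, 0.731, 0.618 and 0.227 in WT, again on opposite sides of 1 and with no overlap. Its log2 fold changes were 1.08 ± 0.72 (SE) and -0.62 ± 0.79. The 3 largest folds belonged to cultures s843, s852 and s853, the lowest in ctrl, and the 2 smallest to cultures s851 and s865, the highest.

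Ly6e was higher at 24h in each Cacnb3-/- culture, between 1.03 and 2.20-fold, with a log2 fold change of 0.48 ± 0.47 (SE), and in WT it was at -0.21 ± 0.37. Ly6c2 was the one tested member that was not higher in 5 of 5 Cacnb3-/- cultures. Its level was lower at 24h in 5 of 5 WT cultures, with folds from 0.426 to 0.809, and in 3 of 5 Cacnb3-/- cultures, with folds from 0.631 to 1.24. The log2 fold changes were -0.67 ± 0.66 (SE) in WT and -0.40 ± 0.74 in Cacnb3-/-. At 24h Ly6c2 was at 47.51, 18.93, 51.61, 74.62 and 5.09 CPM in WT and at 26.01, 32.59, 4.23, 7.64 and 41.75 CPM in Cacnb3-/-.

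EdgeR called 0 of 5 members between ctrl and 24h in WT, against 0.0152% of all genes, and 0 of 5 in Cacnb3-/-, against 0%. Under a replicate block on culture numbers, it called Ly6a at 2.16 ± 0.36 (SE), Ly6i at 1.35 ± 0.30 and Plac8 at 1.13 ± 0.25 in Cacnb3-/-, against 1.11% of all genes. In WT that block called no member. Ly6c2, Ly6i and Plac8, each lower at 24h in WT, reached an adjusted p below 0.05 in 2 refits each. With lane as a term the WT log2 fold changes were -1.25 for Ly6c2, -1.25 for Ly6i, -0.92 for Plac8 and -0.58 for Ly6e, and none was called. Here too s846 was the only WT culture to change lane, so lane and culture cannot be told apart. In Cacnb3-/- 2 of the members and 1343 genes had an unadjusted p below 0.05, and in WT 0 members and 1106 genes did. DESeq2 called 0 members in WT, against 0.199%, and Ly6a in Cacnb3-/-, against 0.334%. The median log2 fold change of the 5 members was 1.08 in Cacnb3-/- and -0.62 in WT, and those of all genes tested were -0.01 and -0.004.

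From 0p5h to 24h the pattern was alike, and it shares the 24h libraries with the comparison above. In Cacnb3-/- cultures Ly6a, Ly6e, Ly6i and Plac8 were higher in 5 of 5 cultures, as were 16.3% of all genes, with log2 fold changes of 1.66 ± 0.54 (SE), 0.33 ± 0.50, 0.93 ± 0.68 and 0.93 ± 0.41. In WT cultures Ly6c2 and Plac8 were lower in 5 of 5, as were 14.7% of all genes, at -0.66 ± 0.70 and -0.85 ± 0.65. EdgeR called 0 of 5 members in either genotype, against 0.639% of all genes in WT and 0.66% in Cacnb3-/-. DESeq2 called 0 members in WT, against 1.03%, and Ly6a in Cacnb3-/-, against 1.46%. In Cacnb3-/- 2 members and 2222 genes had an unadjusted p below 0.05, and in WT 0 members and 1438 genes did. Under a replicate block on culture numbers, edgeR called Ly6a at 1.71 ± 0.22 (SE) and Ly6i at 1.06 ± 0.21 in Cacnb3-/-, against 2.88% of all genes. In WT that block called no member, and Ly6c2 and Plac8 reached an adjusted p below 0.05 in 2 refits each.

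**Figure D3:**
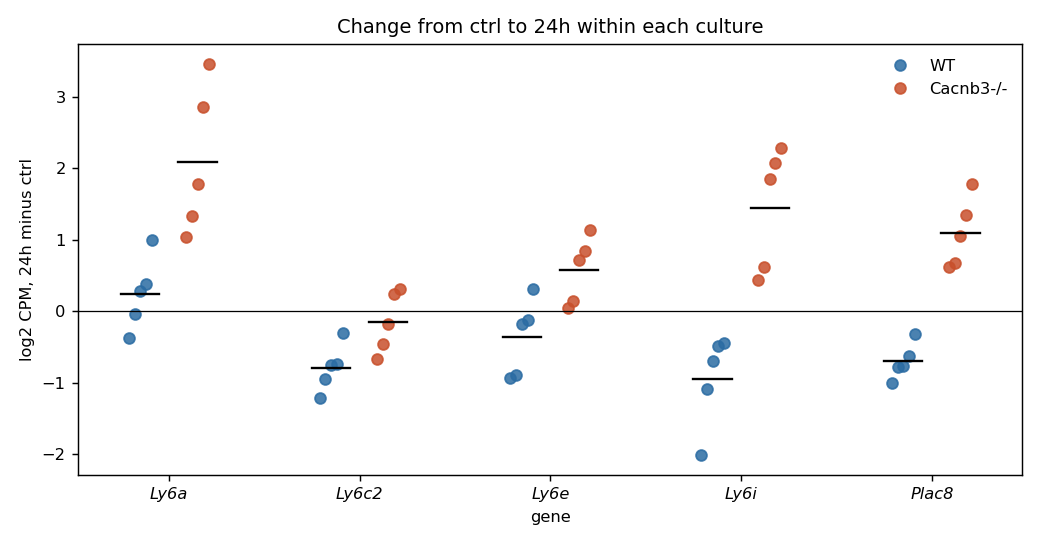
Difference in log2 CPM between the 24h and the ctrl library of each culture, with 1 point per culture, colour for the genotype and a bar at the mean of 5 cultures. For Ly6a the Cacnb3-/- points lie between 1.04 and 3.47 and the WT points between -0.38 and 1.0, for Plac8 between 0.62 and 1.78 and between -1.0 and -0.32, and the points of Ly6c2 and Ly6e overlap.

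Whether the change between sets differed by genotype was fitted as an interaction. From ctrl to 24h the difference in log2 change, Cacnb3-/- minus WT, was 1.90 ± 0.82 (SE) for Ly6a, 0.28 ± 1.06 for Ly6c2, 0.69 ± 0.64 for Ly6e, 1.70 ± 1.15 for Ly6i and 1.88 ± 0.80 for Plac8. Changes per culture did not overlap for Ly6a, Ly6i and Plac8, which was so, with Cacnb3-/- above WT, for 1.1% of all genes. From 0p5h to 24h the differences were 1.43 ± 0.91 (SE) for Ly6a, 0.26 ± 1.12 for Ly6c2, 0.55 ± 0.70 for Ly6e, 1.56 ± 1.17 for Ly6i and 1.78 ± 0.83 for Plac8. Here the changes of Ly6a and Plac8 did not overlap, which was so for 1.88% of all genes. These interactions share the 24h libraries, and they share libraries with the comparisons above.

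From ctrl to 0p5h the differences in log2 change lay between 0.02 for Ly6c2 and 0.47 for Ly6a. EdgeR called 0 of 5 members and 0% of all genes in each of the 3 interactions. DESeq2, which tested all 6 members there, also called 0 members and 0% of all genes. Under the block on culture numbers, edgeR called Ly6i at 2.12 ± 0.37 (SE) and Plac8 at 1.82 ± 0.27 from ctrl to 24h, against 0.118% of all genes, and 0 members from 0p5h to 24h, against 0.00745%. An unadjusted p below 0.05 was reached by 0 members and 30 genes from ctrl to 0p5h, by 1 member and 789 genes from 0p5h to 24h, and by 2 members and 658 genes from ctrl to 24h.

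Ranked by group mean, Ly6a was highest in WT 24h, at 8.58 ± 5.90 CPM (SD, n = 5), and followed by WT 0p5h at 7.41 ± 6.15, WT ctrl at 6.96 ± 4.48, Cacnb3-/- 24h at 6.82 ± 4.09, Cacnb3-/- 0p5h at 2.19 ± 1.70 and Cacnb3-/- ctrl at 1.52 ± 1.12 CPM. The first 4 of these groups lay within their spread of one another. Plac8 was highest in WT 0p5h at 6.42 ± 5.72 CPM and lowest in Cacnb3-/- ctrl at 1.18 ± 0.69 CPM, with Cacnb3-/- 24h at 2.51 ± 1.22 and WT 24h at 3.55 ± 2.47 CPM between them. Ly6i was at 40.12 ± 24.09 and 40.50 ± 30.69 CPM in WT ctrl and 0p5h and at 8.33 ± 8.30 and 9.24 ± 6.98 CPM in Cacnb3-/- ctrl and 0p5h, with 25.96 ± 18.07 CPM in WT 24h and 17.27 ± 11.49 CPM in Cacnb3-/- 24h between these pairs. Ly6e kept to 173.1 ± 89.0 CPM or more in the WT groups and to 127.6 ± 60.51 CPM or less in the Cacnb3-/- groups.

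Ly6c2 did not order by set within Cacnb3-/-, where the means of ctrl, 0p5h and 24h were 30.06 ± 26.46, 30.05 ± 28.08 and 22.45 ± 16.12 CPM. In WT its means were 63.56 ± 43.48, 62.61 ± 47.09 and 39.55 ± 27.62 CPM, each SD being more than the gap to the next group. That SD is between cultures and does not measure the change within a culture. Within cultures Ly6c2 was lower at 24h than in ctrl in 5 of 5.

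Culture took the largest share of the spread of each tested member. Culture within genotype took 81.25% of the sum of squares of log2 CPM of Ly6c2 over the 30 libraries, 70.02% of that of Ly6i, 63.98% for Ly6e, 53.81% for Plac8 and 45.72% for Ly6a. Genotype took between 14.54% for Ly6c2 and 32.47% for Plac8. The library set took 15.55% for Ly6a and at most 1.56% for the other tested members.

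Averaged over the 3 libraries of a culture, Ly6c2 ranged from 3.33 CPM in Cacnb3-/- culture s852 and 6.66 CPM in s853 to 59.96 CPM in Cacnb3-/- culture s865 and 110 CPM in WT culture s856. Ly6e had the same lowest cultures, at 38.53 and 50.20 CPM, and the same highest, at 266.4 CPM. Culture s865, with the rank of 4 of 10 in Ly6c2, was the lowest of all 10 in Ly6a, at 1.68 CPM. Ly6a was highest in WT culture s846, at 15.26 CPM, and Plac8 in WT culture s855, at 12.07 CPM.

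Among the members, Ly6c2, Ly6e and Ly6i were most alike over the 30 libraries. Pearson's r of log2 CPM was 0.95 for Ly6e and Ly6i, 0.94 for Ly6c2 and Ly6e, and 0.92 for Ly6c2 and Ly6i, and the lowest r was 0.57, for Ly6a and Ly6c2. The 30 points are 3 libraries from each of 10 cultures, and Ly6a shares some sequence with Ly6c2 and with Ly6i, so r is given as a description.

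Of 13750 other genes, those nearest in pattern to Ly6a were Ifi44, Oasl2, Ifit1, Isg15 and Ifit2, with r from 0.94 to 0.95. All 5 are known as genes that interferons induce. Nearest to Ly6c2 were Ly6a2, with which it shares 50-base stretches, at r = 0.97, and Hp (haptoglobin), C3 (complement), Acod1 (itaconate synthesis) and Vcan (versican), with r down to 0.94. Acod1 was also nearest to Ly6e and to Ly6i, with r of 0.96 in each case. For Ly6e it was followed by Sod2, Lgals9, Lgals3bp and Shisa5, and for Ly6i by Rigi, Ifitm3, Vcan and Orm1. Plac8 was most like Cst7, a cystatin, at r = 0.95, then Orm1, Fgl2, Osbpl3 and Epb41l2. To the mean z-score of the 5 tested members the nearest genes were Acod1, Rigi, Oas1a, Ifi27, Lgals3bp, Ifi27l2a, H2-T24, Orm1, Cst7 and Ifi211, with r from 0.92 to 0.95.

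Markers of other cell types varied along with some members. Within the 6 groups, the summed inflammatory monocyte markers, 12 genes that were all detected in every group, followed Ly6c2 with r = 0.86, Ly6e with 0.83, Ly6i with 0.67, Plac8 with 0.35 and Ly6a with 0.22 (n = 30 libraries). That sum was lowest in Cacnb3-/- cultures s852 and s853, at 667.8 and 910.2 CPM, and highest in Cacnb3-/- culture s865, at 4448 CPM. Group medians were 1781 CPM in WT ctrl and 1962 CPM in Cacnb3-/- ctrl, and 1114 and 1334 CPM at 24h. Macrophage markers, 10 genes that were also all detected in each group, followed Plac8 with r = -0.49 and Ly6a with -0.28. For Ly6i, Ly6c2 and Ly6e r was -0.06, 0.14 and 0.21. The median of these markers in ctrl was 864.2 CPM in WT and 1841 CPM in Cacnb3-/-. Mature migratory dendritic cell markers, 11 genes all detected in each group, followed Plac8 with r = 0.50 and Ly6a with 0.14. For Ly6i, Ly6c2 and Ly6e r was 0.09, -0.11 and -0.16. The median of these markers in ctrl was 29267 CPM in WT and 21740 CPM in Cacnb3-/-. This list includes Cacnb3 itself, the gene deleted in the Cacnb3-/- mice. In the ctrl comparison of genotypes 10 of the 11 were at negative fold changes, with a median log2 value of -0.49 against 0.03 for all genes. EdgeR called 0 of them, with 5 at an unadjusted p below 0.05, as were 16.59% of all genes. Neutrophil and granulocyte precursor markers, 12 genes, followed Ly6a with r = -0.53 and the other tested members with r from -0.34 for Ly6i to -0.24 for Ly6e. Their ctrl medians were 306.4 CPM in WT and 492.5 CPM in Cacnb3-/-. The part of these marker lists in the differences of the members was not tested.

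The interferon-stimulated genes, a list of 30 chosen by name, followed Ly6a with r = 0.80 within groups, Plac8 with 0.63, Ly6i with 0.54, Ly6e with 0.34 and Ly6c2 with 0.32. Their sum over a culture ranged from 1371 CPM in Cacnb3-/- culture s865 to 2994 CPM in WT culture s855. In the ctrl set 28 of 30 of them were at negative fold changes in Cacnb3-/- against WT, with a median of -1.57 on the log2 scale and 0.03 for all genes tested. Of these 30 genes edgeR called 0, with 27 at an unadjusted p below 0.05, as were 16.59% of all genes. DESeq2 called 20 lower, against 1.02% of all genes called. Isg15, a ubiquitin-like protein, went from 42.04 to 7.39 CPM (adjusted p = 0.243, edgeR), a log2 fold change of -2.48 ± 0.59 (SE). At 24h the median was -0.61, and edgeR called 0, with 4 at an unadjusted p below 0.05, as were 38.38% of all genes. DESeq2 called 2 lower there, against 4.74% of all genes called. From 0p5h to 24h in Cacnb3-/- cultures 30 of 30 were at positive fold changes, with a median of 1.16 against 0 for all genes. In WT cultures 29 of 30 were. From ctrl to 24h 30 of 30 were in Cacnb3-/- and 28 of 30 in WT. In Cacnb3-/- edgeR then called 0 and DESeq2 16 of the list, against 0% and 0.334% of all genes. From 0p5h to 24h in Cacnb3-/- cultures edgeR called 3 higher, against 0.66% of all genes, and DESeq2 17, against 1.46%.

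**Figure D4:**
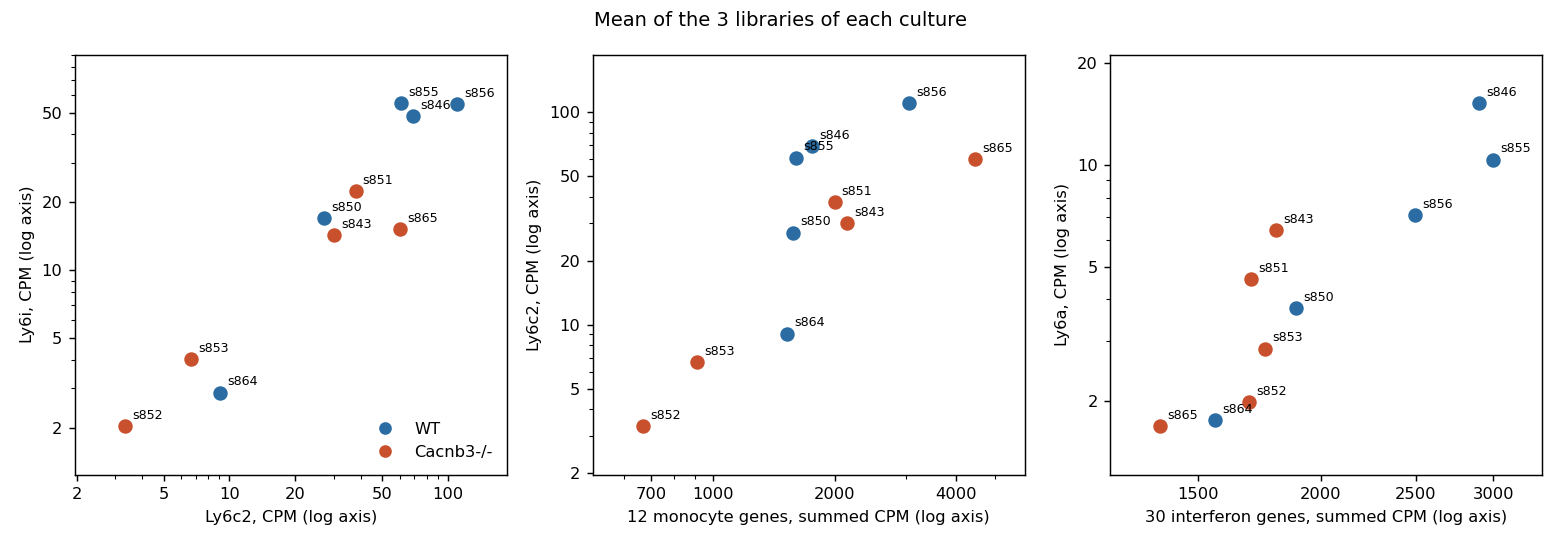
Means over the 3 libraries of each of the 10 cultures, in CPM on log axes, with the culture number beside each point and colour for the genotype. Plotted are Ly6i against Ly6c2 (left), Ly6c2 against the sum of 12 inflammatory monocyte markers (middle) and Ly6a against the sum of 30 interferon-stimulated genes (right). Cacnb3-/- cultures s852 and s853 are lowest in Ly6c2 and in the monocyte sum, and Cacnb3-/- culture s865 is highest in the monocyte sum and lowest in Ly6a and in the interferon sum.

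Those 3 were Ifit1, at a log2 fold change of 2.81 ± 0.58 (SE; adjusted p = 0.0469, edgeR), Ifit3b at 2.57 ± 0.47 (adjusted p = 0.0263, edgeR) and Trim30a at 1.21 ± 0.23 (adjusted p = 0.03, edgeR). Ifit1 and Ifit3b are RNA-binding antiviral proteins, and Trim30a is a tripartite motif protein. With 1 culture fewer, 0 of the list were called without Cacnb3-/- culture s851, s852 or s853, 1 without s865 and 4 without s843. With the replicate block 17 were called, against 2.88% of all genes. In WT cultures the median of the list was 0.30 and edgeR and DESeq2 called 0. There 2 of the 30 were at an unadjusted p below 0.05 in edgeR, as were 11.21% of all genes. In the interactions of genotype and set from 0p5h to 24h and from ctrl to 24h, edgeR and DESeq2 called 0 of the list.

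Genes that act earlier in the interferon pathway were listed as well. Of 21 ligands, receptors and signalling genes of interferon, edgeR called 0 in any of the 13 comparisons, with medians between -0.37 and 0.08. From 0 to 9 of the 16 tested were at an unadjusted p below 0.05. The 9 were for the genotypes in ctrl, where 16.59% of all genes were. DESeq2 called Irf7 and Stat2 lower in Cacnb3-/- than in WT in ctrl, in 0p5h and with the libraries summed, against 1.02%, 0.597% and 1.75% of all genes. It also called Irf7 lower at 24h, and higher at 24h than in ctrl within Cacnb3-/-, against 4.74% and 0.334% of all genes. The most abundant were Jak2, Irf8 and Irf1, at -0.12, -0.60 and -0.30 on the log2 scale in Cacnb3-/- against WT ctrl (adjusted p = 0.744, 0.284 and 0.449, edgeR). Irf9 and Stat2, parts of the complex that binds the response element, were picked after their values were seen. From 0p5h to 24h in Cacnb3-/- they had log2 fold changes of 0.85 ± 0.13 (SE; adjusted p = 0.0102, edgeR) and 0.62 ± 0.12 (adjusted p = 0.0366, edgeR), below the 2-fold minimum. Irf9 was higher in 5 of 5 cultures, and so was Stat2.

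The GPI anchor of the Ly6 proteins is made and attached by a separate set of genes. Of 29 listed, edgeR called 0 in any of the 13 comparisons, and DESeq2 called 0 as well. From 0 to 12 of them were at an unadjusted p below 0.05. The 12 were for the genotypes at 24h, where 38.38% of all genes were, so this count is near the share of all genes. List medians lay between -0.11 and 0.07. Pgap2, Pigt and Pigs, the most abundant, were at -0.34, -0.12 and -0.36 in Cacnb3-/- against WT ctrl (adjusted p = 0.289, 0.695 and 0.363, edgeR).

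Most of the remaining Ly6/uPAR family was at or near the floor. Of 33 such genes in the table, 23 passed the filter on low counts in no comparison, 3 of which were at 0 in all libraries, and 6 passed it in all 13. Those 6 were Ly6g, a granulocyte marker, Ly6a2, Lynx1, Psca, Cd59a, a complement regulator, and Plaur, the urokinase receptor. Ly6g had a mean of 2.13 CPM, Ly6a2 10.7, Psca 9.67 and Plaur 97.1 CPM over the 30 libraries.

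Plaur was the only one called by edgeR, and only from 0p5h to 24h in WT cultures. There it fell from 126.8 to 45.81 CPM, by 1.46 ± 0.25 (SE) on the log2 scale (adjusted p = 0.0152, edgeR), in 5 of 5 cultures. In Cacnb3-/- cultures its log2 fold change was -1.57 ± 0.34 (adjusted p = 0.0543, edgeR), DESeq2 called it as well, and under a replicate block on culture numbers it was -1.51 (adjusted p = 2.41e-05, edgeR). The WT call was lost without culture s846, s850 or s856, at adjusted p-values of 0.0718, 0.0814 and 0.114 in edgeR. Of the members, Ly6c2 and Plac8 were also lower at 24h than at 0p5h in 5 of 5 WT cultures, and neither was called.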

How the data were processed

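RNA of BMDCs was measured in 30 libraries. The authors deposited whole-number read counts per gene. Per the file headers these came from featureCounts 1.5.1 on GRCm38 with ENSEMBL release 79, counting read 1, and the submitters' notes name STAR and mm10. The study's methods describe another build and read layout, so alignment details are uncertain, and strand is not given in the sources used here. Genotype was taken from the labels and the set from the ending of the library name. P-values of the fits without a block weigh a difference against the spread between these cultures, and between sets they ignore the pairing of libraries. Those of the blocked fits weigh it against how far the change within a culture varied between cultures.

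Counts were tested in R 4.3.3 with edgeR 4.0.16 (TMM, filterByExpr, quasi-likelihood, no block), with DESeq2 1.42.0 as an alternative, over all genes in 13 comparisons, with Benjamini-Hochberg adjustment. Scripts were tested on simulated data. CPM are relative to TMM-scaled library totals, with a prior count of 2 on the log2 scale. Named were the members, list genes called in any comparison or otherwise the 3 most abundant of a list, and the 5 nearest patterns per member and 10 of their mean. The members and lists were chosen with earlier results of these data known.

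Culture numbers come from the labels. Among 30 library pairs that share a number, 29 had deviations correlated above 0.1 (lowest 0.076, median 0.6105, over 13755 genes), and no libraries were identical. In 29 pairs the library of the same number was the closest of its genotype and set. The exception was ctrl to 24h of Cacnb3-/- culture s843. Symbols came from GENCODE for 38981 of the IDs.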

Additional observations from a re-analysis of the deposited data

Results flagged for a closer look

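In 3 groups of 5 libraries, 1 library lay far from the other 4 by Dixon's test on log2 CPM, which chance gives in about 1 of 20 groups. With several members in 6 groups each, more than 1 such library can arise by chance. Ly6a was at 3.51 CPM in Cacnb3-/- ctrl culture s851, while the others lay between 0.833 and 1.11 CPM. Ly6e was at 104.6 CPM in WT ctrl culture s864, below the other WT cultures at 205 to 264 CPM. Ly6i was at 3.77 CPM in the same library, below 27.67 to 60.03 CPM. Ly6e and Ly6i were alike over the 30 libraries, with r = 0.95, so their flags are not independent.

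From ctrl to 24h every Cacnb3-/- culture was higher and every WT culture lower for Plac8 and Ly6i. From 0p5h to 24h this held for Plac8, with WT culture s850 at 0.990-fold, and not for Ly6i, with s850 at 1.265-fold. Changes without overlap, Cacnb3-/- above WT, were found for 1.1% of all genes from ctrl to 24h and for 1.88% from 0p5h to 24h. For Plac8 the difference in log2 change, Cacnb3-/- minus WT, was 1.78 from 0p5h to 24h and 1.88 from ctrl to 24h, and for Ly6i it was 1.70 from ctrl to 24h. None of these interactions passed edgeR's adjusted threshold without a block. Under a replicate block on culture numbers, edgeR called those from ctrl to 24h, at 1.82 for Plac8 and 2.12 for Ly6i, where 0.118% of all genes were called. Both changes of Plac8 use the same 24h libraries.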

How the results depend on the processing

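Of 1048 recomputed fold changes of the members, 1010 kept their sign and 0 moved by as much as 1 SD of log2 CPM between the libraries of a group, a wide limit given the spread between cultures. Smaller moves could pass the standard error, as for Ly6i from ctrl to 0p5h in WT, at -0.86 with lane as a term. WT culture s846 alone changed lane there, and with a replicate block on culture numbers Ly6i was at -0.10. The sign turned mostly where the value was near 0, between ctrl and 0p5h. EdgeR without a block called 0 members in each of the 13 comparisons on all cultures. DESeq2 called 2 in the ctrl comparison of genotypes and 1 in each of 0p5h, summed libraries, 24h against 0p5h and 24h against ctrl in Cacnb3-/-. Leaving out 1 culture gave 0 to 2 members in the ctrl and summed comparisons, and 2 only without WT culture s864.

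Under a replicate block on culture numbers, edgeR called 2 members from 0p5h to 24h (2.88% of all genes) and 3 from ctrl to 24h (1.11%) in Cacnb3-/-, and 2 in the interaction from ctrl to 24h (0.118%). With that block DESeq2, added after seeing the data, called 2 (2.64%) and 3 (1.22%), and 1 (0.423%) and 3 (0.397%) in the interactions from 0p5h to 24h and from ctrl to 24h. The edgeR block changed no other call of a member. In WT, an adjusted p below 0.05 was reached in 2 refits each by Ly6c2, Ly6i and Plac8 from ctrl to 24h. The same held for Ly6c2 and Plac8 from 0p5h to 24h. A call also needs at least a 2-fold change. The ctrl and 24h libraries of Cacnb3-/- culture s843 correlated at 0.076, and those of the other 4 cultures at 0.429 to 0.703. The ctrl library of s843 correlated at 0.398 with the 24h library of another Cacnb3-/- culture, so the pairing of s843 is uncertain. The blocked fits from ctrl to 24h in Cacnb3-/- include this pair. For the interferon-stimulated genes from 0p5h to 24h in Cacnb3-/-, 17 were called by DESeq2, 11 with no filter on low counts, 17 with the replicate block in either tool, and 0 to 4 with 1 culture left out. Of the other Ly6/uPAR genes, 0 to 1 were called in WT from 0p5h to 24h with 1 culture left out, where Plaur ranged from -1.54 to -1.38 in the cases that lost the call. The cause of these changes was not tested. The lane term was not run for summed libraries. Counts of 9 to 37 for Plac8 limit its precision in Cacnb3-/- ctrl, and Ly6c1 was too low to follow.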
